A study of Mus musculus with 10 samples.

Results

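Neuropeptides are short signals cut from larger precursor proteins, and immune cells can both carry their receptors and transcribe some of the precursors. The 9 genes described here encode 3 proteins of the secretory route (Calca, Penk and Scg5) and 6 receptors or receptor subunits (Ramp1, Calcrl, Vipr1, Vipr2, Nmur1 and Gfra4). They were measured in Tregs, the regulatory subset of CD4 T cells, which is marked by Foxp3 and restrains immune responses. They are 9 of the 23992 gene symbols in the files, and 15 of the 31682 transcript rows carry their names. The row that stands for each gene was chosen by its mean reads over the 10 libraries, the highest being taken. The 9 genes themselves were selected on their names with the reads of all 4 groups and earlier results of these data in view, so their values are a description, and the number of them that passed a test says nothing about neuropeptide genes in general.

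The 10 libraries fall into 4 groups of C57BL/6J mouse Tregs. Natural Tregs of wild-type spleen spent 24 h in culture with anti-CD3 and anti-CD28, a stimulus of the T cell receptor (TCR), plus the epithelial cytokine TSLP (2 libraries, TCR + TSLP) or with these antibodies alone (2 libraries, TCR). Lung Tregs came from the allergic lung of ovalbumin-immunized mice that were Crlf2fl/fl Foxp3YFP-Cre, labelled a conditional knockout (3 libraries, Crlf2-deleted), or Foxp3YFP-Cre, labelled wild-type (3 libraries, control). Crlf2 encodes the subunit of the TSLP receptor that binds TSLP. Cre was driven from the Foxp3 gene in both lung groups, so both carry Cre and YFP and deletion is limited to cells that have used that gene. The labels give no age of the mice and do not say whether replicates are separate animals or cultures. P-values therefore measure only the spread between these libraries, which may be technical.

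Calcitonin gene-related peptide (CGRP) and calcitonin are 2 products of Calca, made by alternative splicing of its transcript. The CGRP receptor is a complex of Calcrl, which spans the membrane and couples to the stimulatory G protein Gs, and Ramp1, a single-pass subunit that gives Calcrl its selectivity for CGRP. Vipr1 and Vipr2 encode VPAC1 and VPAC2, the Gs-coupled receptors of vasoactive intestinal peptide and PACAP. Nmur1 encodes a receptor of neuromedin U, and Gfra4 a membrane-anchored receptor of persephin, a ligand of the GDNF family that signals through Ret. Penk encodes the precursor of the enkephalins, and Scg5 encodes 7B2, a chaperone of the prohormone convertase PC2. In the lung, CGRP is known from sensory nerves and neuroendocrine cells, and NMUR1 from group 2 innate lymphoid cells.

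The coding parts of the alternative exons of Calca show what the 2 splice forms put into the peptide. They are on the minus strand of chromosome 7 (GRCm38, GENCODE M21), are written 5′ to 3′, and have in capitals the 32 codons of mature calcitonin and the 37 codons of mature CGRP.
Calca, calcitonin exon, chr7:114633605-114633785: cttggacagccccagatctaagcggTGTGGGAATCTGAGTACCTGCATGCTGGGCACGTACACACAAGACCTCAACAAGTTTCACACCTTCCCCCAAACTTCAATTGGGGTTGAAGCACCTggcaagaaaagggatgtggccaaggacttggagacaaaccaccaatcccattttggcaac
Calca, CGRP exon, chr7:114632443-114632599: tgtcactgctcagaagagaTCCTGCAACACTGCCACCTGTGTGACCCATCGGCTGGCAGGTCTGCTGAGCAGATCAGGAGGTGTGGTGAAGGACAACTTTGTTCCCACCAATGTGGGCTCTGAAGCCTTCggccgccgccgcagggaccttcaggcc

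The 250 bases before the start are shown for Calca and Scg5, which rose in Crlf2-deleted lung Tregs and held a motif marked below. The promoters listed for Ramp1, Vipr2 and Gfra4, which also rose, held none of the marked motifs. Sequences are from RefSeq (GRCm38.p6), both on the minus strand, 5′ to 3′. Capitals mark TGACG, the half-site of the cAMP response element, and TTCNNNGAA, the palindrome that STAT proteins can bind.
Calca, chr7:114636358-114636607: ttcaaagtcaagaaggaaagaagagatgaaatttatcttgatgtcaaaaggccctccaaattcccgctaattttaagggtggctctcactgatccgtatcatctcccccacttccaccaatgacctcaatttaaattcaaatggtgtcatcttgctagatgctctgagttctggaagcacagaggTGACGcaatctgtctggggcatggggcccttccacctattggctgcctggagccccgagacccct
Scg5, chr2:113829092-113829341: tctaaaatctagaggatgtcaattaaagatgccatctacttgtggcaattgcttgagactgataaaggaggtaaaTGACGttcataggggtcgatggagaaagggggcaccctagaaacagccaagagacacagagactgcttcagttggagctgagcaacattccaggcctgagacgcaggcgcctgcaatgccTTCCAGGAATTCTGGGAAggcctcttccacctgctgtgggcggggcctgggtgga

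The Calca sequence held 1 TGACG and no TTCNNNGAA. The Scg5 sequence held 1 TGACG and 2 TTCNNNGAA that lie end to end. On either strand, TGACG stood in 3 of the 10 promoters listed for 8 of the genes (Calca, Scg5 and Vipr1), against 17.8% of all 32851 promoters of this length. TTCNNNGAA stood in 1 of the 10, that of Scg5, against 7.02% of all, and GATAA, the core of the GATA factors' motif, in 3 of the 10 (Calca, Scg5 and 1 of 2 for Nmur1), against 22.6% of all. A match is a stretch of letters and was not tested as a binding site. Penk was not matched to the promoter table.

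Levels below are normalised reads, which are CPM after TMM scaling (a factor per library that balances the bulk of genes) within a comparison. Levels compared between genes or between spleen and lung are normalised reads per kb of transcript, scaled over all 10 libraries. Libraries held 27237312 to 51671903 reads in spleen and 1439675 to 18349039 reads in lung, counting 1 transcript per gene. The shallowest, control 2, gives the least precise values. Crlf2 fell in Crlf2-deleted lung Tregs to 6.44 ± 2.76 normalised reads, against 115 ± 27.7 in controls (SD, n = 3 each). Foxp3 was at 386, 490 and 427 normalised reads in Crlf2-deleted libraries and at 474, 437 and 200 in controls. The lowest of these, control 3, stood apart from the other 5 lung libraries. Its summed markers of red cells were 113300 normalised reads, against 1236 to 4590 in the other 5, and those of macrophages and dendritic cells were 4528, against 325 to 1047. The fold changes of the 9 genes are therefore also given without it. Without it, the macrophage and dendritic cell sums were 1019, 1045 and 1047 in Crlf2-deleted libraries, against 325 and 398 in controls, so they moved with the 6 genes that were high in Crlf2-deleted libraries, and their part in those values was not tested.

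In lung Tregs, Crlf2-deleted cells held more RNA of Calca, Scg5, Ramp1, Vipr2 and Gfra4 than controls, by 2.45 to 14.4-fold. All 9 genes passed the filter on low reads, 5 rose, 0 fell and 4 did not pass the test (edgeR quasi-likelihood test, Benjamini-Hochberg adjusted p under 0.05). At an unadjusted p under 0.05 the counts were 6 higher and 0 lower, and DESeq2 also called 6 higher and 0 lower. Among all 12717 genes tested, 0.771% were called higher and 1.01% lower by edgeR at the adjusted threshold. These shares stand beside the 5 only. The share at an unadjusted p is not given here, and DESeq2 called more genes over all too, as the closing part shows. For 6 of the 9 genes every Crlf2-deleted library was above every control, which held for 10.4% of all genes tested, and for 0 of the 9 the reverse, which held for 11.6%. The median log2 fold change of all genes was -0.04. Since Gfra4 reached the filter's level in 2 of 3 control libraries and Scg5 in 1 of 3, both passed it through the group in which they were high.

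**Figure D1:**
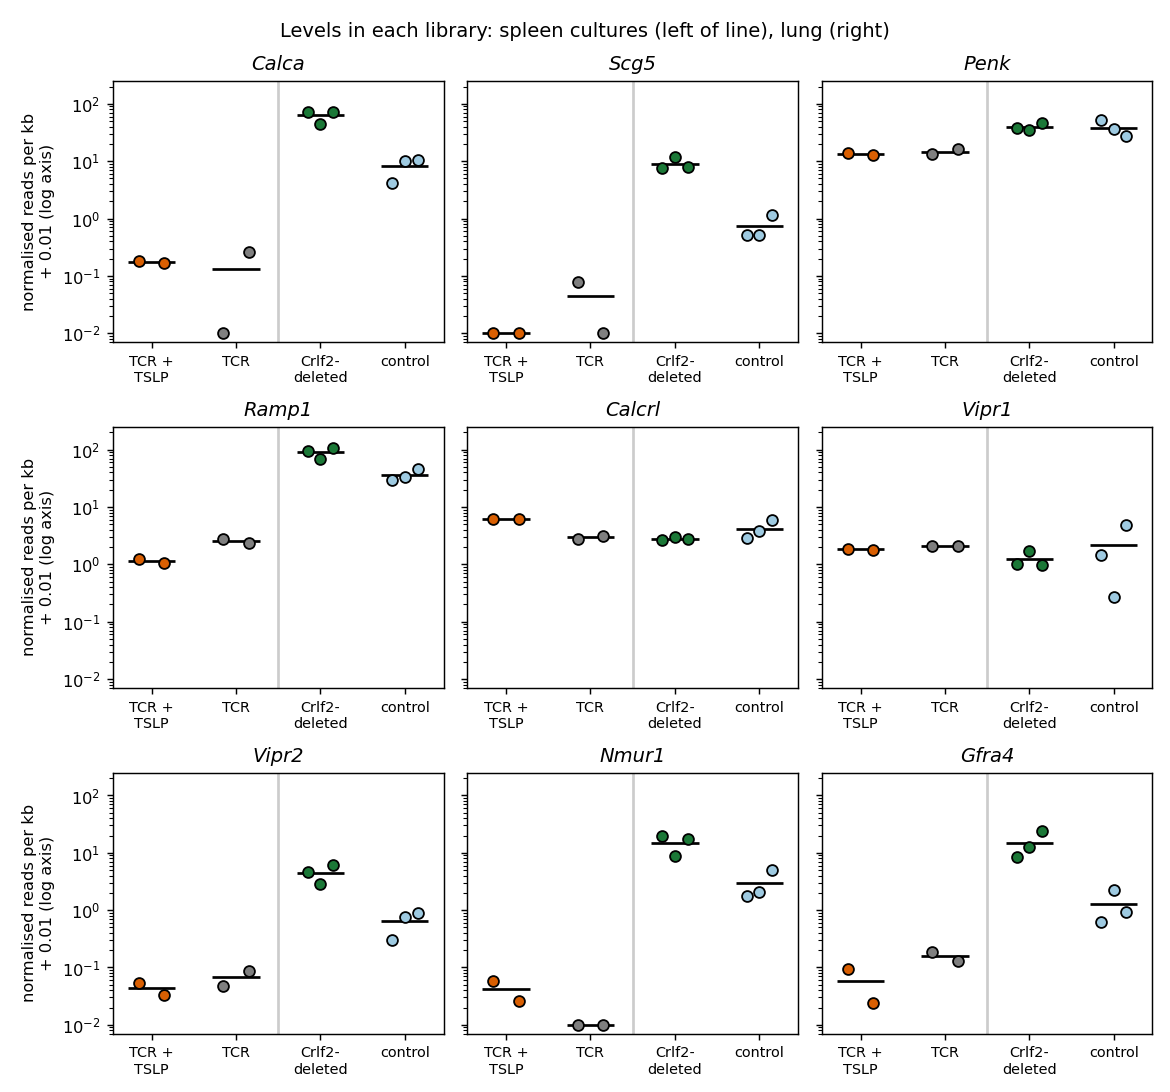
Normalised reads per kb of each gene in every library, with 0.01 added and on a log axis. Points are libraries and lines are group means, with the spleen cultures left and the lung groups right of the grey line. Calca, Scg5, Ramp1, Vipr2, Nmur1 and Gfra4 are higher in all 3 Crlf2-deleted libraries than in any control, whereas Penk, Calcrl and Vipr1 overlap.

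Among the precursors, Calca had 68.6, 40.8 and 66.8 normalised reads in Crlf2-deleted libraries (705, 510 and 1280 reads), against 3.88, 9.58 and 9.94 in controls (29, 14 and 105 reads). The groups did not overlap, and even the lowest Crlf2-deleted library stood well above the highest control. The log2 fold change was 2.96 (SE 0.39), or 7.78-fold (edgeR, adjusted p = 0.0162). Without control 3 it was 3.42 (edgeR, adjusted p = 0.00503).

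Scg5, the PC2 chaperone, had 9.93, 15.2 and 10.3 normalised reads in Crlf2-deleted libraries (489 reads in all), against 0.669, 0.684 and 1.51 in controls (22 reads in all). All 3 Crlf2-deleted libraries were higher than every control, whose levels lay near the detection limit: 3 reads, the most that a count of 0 allows, are worth 0.284 to 2.05 normalised reads there. Its log2 fold change was 3.49 (SE 0.52; edgeR, adjusted p = 0.0233), and 4.11 without control 3.

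Penk, the enkephalin precursor, was at 57.9, 52.2 and 69.7 normalised reads in Crlf2-deleted libraries, against 78.1, 55.4 and 42.5 in controls. The groups overlapped fully, with both the highest and the lowest library among the controls. Its log2 fold change was 0.03 (SE 0.24; edgeR, adjusted p = 0.969), and -0.18 without control 3. The Penk row shares 157 bases with A830012C17Rik on the other strand, and whether the authors' counting used strand was not stated.

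Of the receptor genes, Ramp1 was the most abundant in both lung groups. It had 253, 183 and 289 normalised reads in Crlf2-deleted libraries, against 79.3, 92.4 and 124 in controls. Every Crlf2-deleted library was above every control, with a log2 fold change of 1.29 (SE 0.22), or 2.45-fold (edgeR, adjusted p = 0.0332). Without control 3 it was 1.51. With the reads of all 3 Ramp1 transcript rows summed, the fold change was 1.27 and missed the threshold (edgeR, adjusted p = 0.0533).

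Calcrl, the partner that Ramp1 needs, was at 13.2, 15.3 and 13.6 normalised reads in Crlf2-deleted libraries, against 14.3, 19.2 and 29.8 in controls, so that the groups overlapped with the single highest value in control 3. The log2 fold change was -0.60 (SE 0.32; edgeR, adjusted p = 0.415), and -0.22 without control 3. Per kb and within a library, Ramp1 exceeded Calcrl 35.5-fold, 22.3-fold and 39.5-fold in Crlf2-deleted libraries, against 10.3-fold, 8.96-fold and 7.73-fold in controls. Both lung groups thus held a large excess of Ramp1 over Calcrl transcript, and the ratio did not overlap between them.

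Vipr2 had 16.4, 10.3 and 21.7 normalised reads in Crlf2-deleted libraries (168, 129 and 416 reads), against 1.07, 2.74 and 3.22 in controls (8, 4 and 34 reads). The groups did not overlap, and the log2 fold change was 2.81 (SE 0.53), or 7.01-fold (edgeR, adjusted p = 0.0446). It was 3.41 without control 3. Vipr1, the other receptor of the same peptides, had 5.26, 8.97 and 5.01 normalised reads in Crlf2-deleted libraries, against 7.49, 1.37 and 25.5 in controls. Its controls ran from 2 reads in control 2 to 269 reads in control 3, both below and above every Crlf2-deleted library. The log2 fold change was -0.91 (SE 0.76; edgeR, adjusted p = 0.615), and 0.35 without control 3.

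Per kb, Vipr2 exceeded Vipr1 in all 3 Crlf2-deleted libraries, by 4.50-fold, 1.67-fold and 6.28-fold. In controls the ratio was 0.207, 2.90 and 0.183. The ratio overlapped between the groups through control 2, with its 2 Vipr1 reads and 4 Vipr2 reads. In the spleen cultures Vipr1 was the main form in every library, with a Vipr2 to Vipr1 ratio of 0.0236 and 0.0131 in TCR + TSLP and 0.0179 and 0.0368 in TCR.

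**Figure D2:**
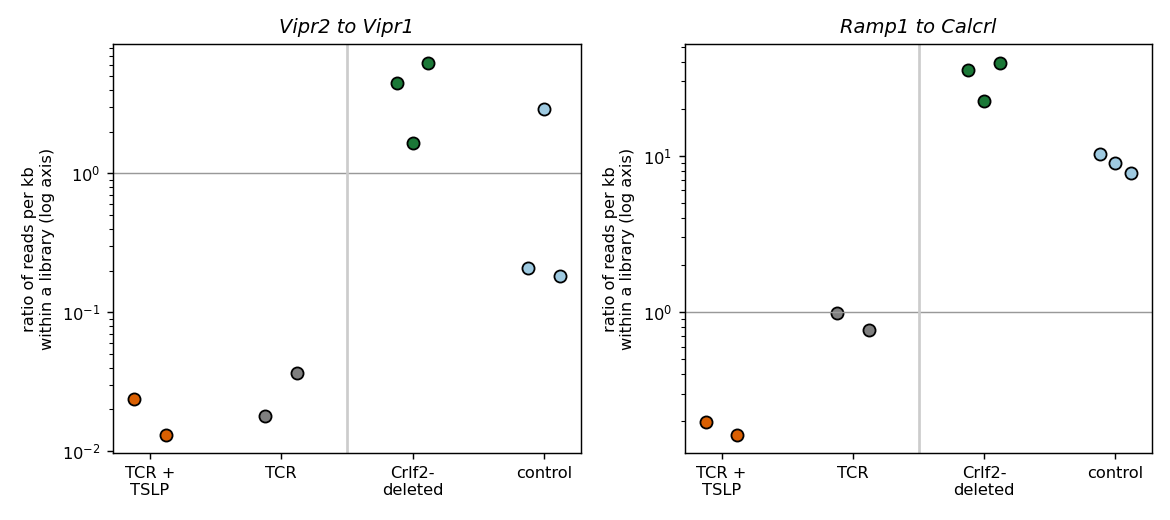
Ratio of reads per kb within each library, on a log axis, for Vipr2 over Vipr1 and for Ramp1 over Calcrl. Points are libraries and the horizontal line marks equal levels. Ramp1 lies below Calcrl in all 4 spleen libraries and above it in all 6 lung libraries, and control 2 is the control in which Vipr2 exceeds Vipr1.

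Gfra4 had 13.1, 19.0 and 35.9 normalised reads in Crlf2-deleted libraries (134, 237 and 687 reads), against 0.936, 3.42 and 1.42 in controls (7, 5 and 15 reads). The groups did not overlap, and the log2 fold change of 3.85 (SE 0.60), or 14.4-fold, was the largest of the 9 (edgeR, adjusted p = 0.0261). It was 3.85 without control 3. The Gfra4 row shares 7 bases with Mir6973b. Ret, through which Gfra4 signals, summed to 10 reads in Crlf2-deleted libraries and 23 in controls, and its ligand persephin (Pspn) to 4 and 0 reads.

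Nmur1 had 25.1, 11.2 and 22.2 normalised reads in Crlf2-deleted libraries (258, 140 and 426 reads), against 2.27, 2.74 and 6.62 in controls (17, 4 and 70 reads). The groups did not overlap, but its log2 fold change of 2.25 (SE 0.52), or 4.76-fold, did not pass the test (edgeR, adjusted p = 0.0777). Without control 3, the control in which it was highest, the fold change was 3.02 (edgeR, adjusted p = 0.0164), and DESeq2 called it with all 6 libraries (DESeq2, adjusted p = 0.00195).

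**Figure D3:**
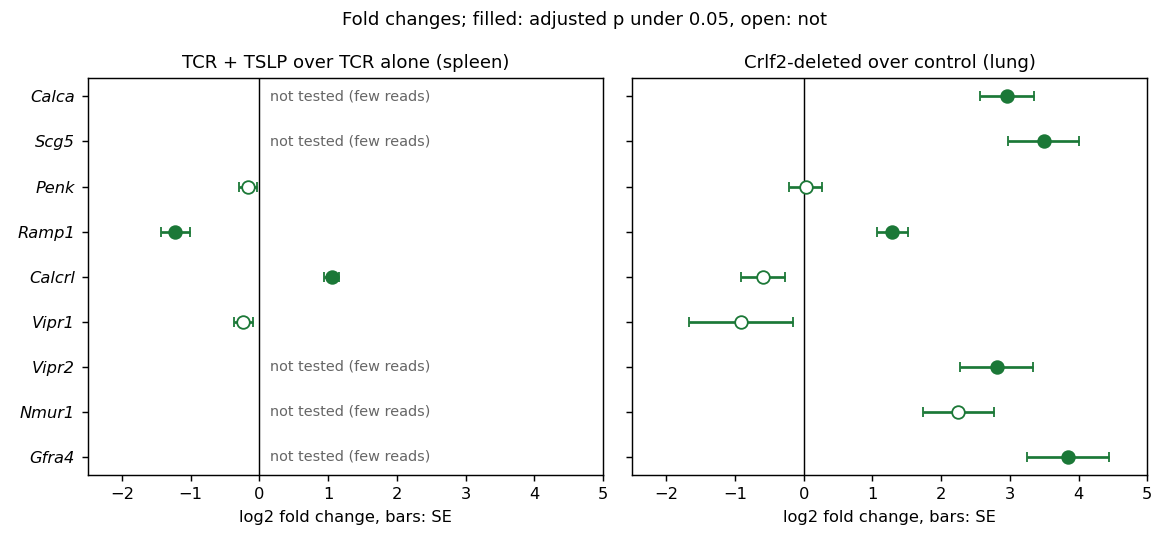
Log2 fold change of each gene (edgeR) in TCR + TSLP over TCR alone and in Crlf2-deleted over control lung Tregs, with bars of 1 SE. Filled points had an adjusted p under 0.05 and open points did not. Ramp1 lies on opposite sides of 0 in the 2 comparisons, at -1.22 and 1.29.

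Most of the lung calls were lost when a single library other than control 3 was left out. No gene of the 9 was called without Crlf2-deleted 1, without Crlf2-deleted 3 or without control 2, and all genes called numbered 4, 7 and 22 in those fits, against 227 with all 6 libraries. Calca alone was called without control 1, and Calca and Ramp1 without Crlf2-deleted 2. Without control 3, 6 were called: the 5 and Nmur1. The number of all genes called in that fit is not given here, so these 6 are not set against a share. The closing part gives the range of all genes called over the fits with 1 library left out. The direction of these 6 genes did not change in any fit with 1 library left out. Calca ranged from 2.59 to 3.42 on the log2 scale, Scg5 from 3.18 to 4.11, Ramp1 from 1.15 to 1.51, Vipr2 from 2.40 to 3.41, Nmur1 from 1.90 to 3.02 and Gfra4 from 3.28 to 4.25. Where 1 group was left with 2 libraries, these were assumed to vary like the other group's.

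**Figure D4:**
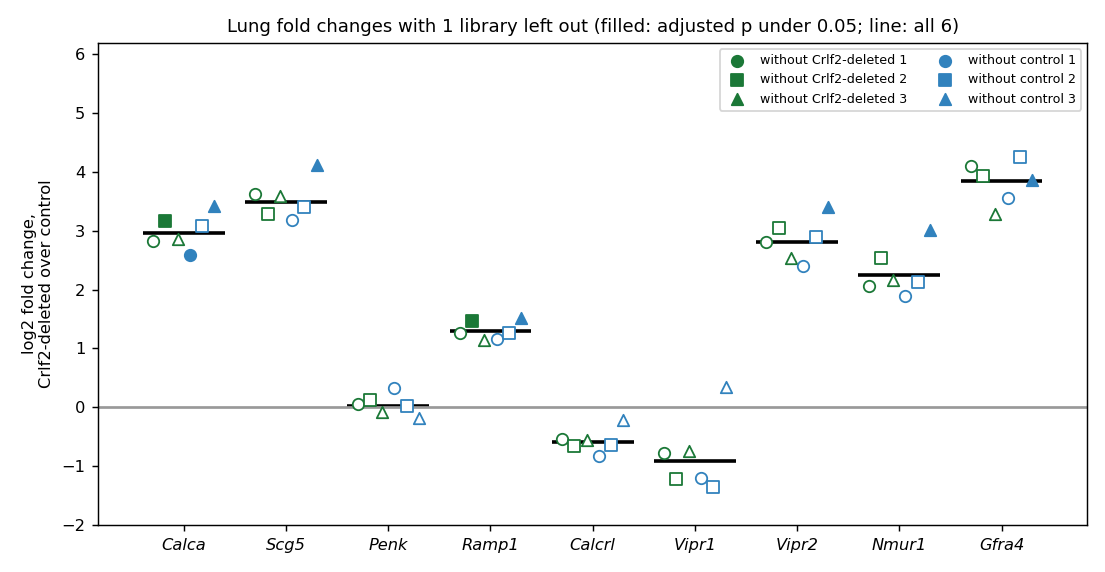
Log2 fold change of each gene, Crlf2-deleted over control, with 1 library left out at a time. Filled symbols had an adjusted p under 0.05 and open ones did not, and the black line is the value with all 6 libraries. The 6 genes with high values keep their sign throughout, while most of their symbols are open, and Penk and Vipr1 change sign without control 3.

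Markers of other cells moved with these results in part. In bulk libraries, fewer cells of a type and less RNA per cell cannot be told apart. The 11 markers of group 2 innate lymphoid cells summed to 2651 to 3525 normalised reads in Crlf2-deleted libraries and to 1272 to 1921 in controls. Of them, 2 of 11 rose (Klrg1, with edgeR adjusted p = 0.0354, and Id2, with edgeR adjusted p = 0.0181), both also without control 3, and none was at 0. Among all genes tested in lung, 0.771% were called higher. Lung Tregs also express several of the 11, among them Gata3, Il1rl1 and Klrg1. Il17rb was at 39.4, 22.4 and 33.0 normalised reads in Crlf2-deleted libraries and at 10.7, 18.5 and 9.27 in controls. Gata3 was at 1610, 1313 and 1752 in Crlf2-deleted libraries and at 864, 967 and 496 in controls. Of the cytokines on the list, Il13 was at 5.65, 6.57 and 7.73 normalised reads in Crlf2-deleted libraries and at 1.34, 2.05 and 6.15 in controls, and Il5 at 0.876, 1.84 and 1.83 and at 0.802, 2.74 and 20.4. Arg1 was at 49.0, 55.6 and 71.3 in Crlf2-deleted libraries and at 3.48, 14.4 and 61.9 in controls. Il17rb, Gata3, Klrg1, Id2 and Hpgds were higher in every Crlf2-deleted library than in any control, which held for 10.4% of all genes tested. Il13, Arg1, Il5, Il1rl1, Il9r and Rora overlapped between the groups. The part of such cells in the values of Calca, Ramp1 and Nmur1 was not tested.

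Among the markers of pulmonary neuroendocrine cells, Chgb, Uchl1 and Scg3 were at 0 reads in all 6 lung libraries, and of the 9 markers of neurons and glia, Rbfox3, Elavl4 and Sox10 were at 0. The neuroendocrine list summed to 4.91 to 14.9 normalised reads in Crlf2-deleted libraries and to 1.37 to 9.90 in controls. Syp held 131, 178 and 81 of its reads in Crlf2-deleted libraries and 69, 2 and 51 in controls. Chga had 7, 0 and 4 reads in Crlf2-deleted libraries and 0 in every control, and Insm1 had 5, 8 and 5 reads against 2, 0 and 1. The neuron and glia list summed to 1.27 to 6.47 normalised reads in Crlf2-deleted libraries and 0.535 to 4.79 in controls. Prph had 7, 62 and 63 reads in Crlf2-deleted libraries and 3, 0 and 3 in controls, Nefl 0, 1 and 38 against 0, 0 and 1, and Syt1 0, 0 and 13 against 0 in every control. Tubb3 went the other way, with 2, 3 and 1 reads in Crlf2-deleted libraries and 0, 7 and 36 in controls. These are raw reads, and the libraries differ in depth. In normalised reads, Syp was at 12.8, 14.3 and 4.23 in Crlf2-deleted libraries and at 9.23, 1.37 and 4.83 in controls. Insm1 was at 0.487, 0.641 and 0.261, against 0.267, 0 and 0.0946, so both overlapped between the groups. Prph, at 0.682, 4.96 and 3.29 against 0.401, 0 and 0.284, did not overlap, as Calca did not. Chga, Nefl, Syt1 and Tubb3 overlapped. The part of such cells in the values of Calca was not tested. Lung epithelium markers summed to 2328 to 18270 normalised reads in Crlf2-deleted libraries and 16780 to 80620 in controls, and endothelium markers to 78.6 to 90.0 and 100.4 to 128. The epithelial sums overlapped between the groups, and the endothelial sums were lower in every Crlf2-deleted library. Most of each endothelial sum was Pecam1, which itself overlapped between the groups. It was at 73.4, 62.8 and 68.4 normalised reads in Crlf2-deleted libraries and at 71.55, 119.7 and 89.3 in controls.

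The rows of Calca and Ramp1 allow a look at their splice forms. The calcitonin row and the CGRP row of Calca share 3 exons. The calcitonin row has 493 bases of exon of its own, and the CGRP row 612 bases. The calcitonin row held 705, 510 and 1280 reads in Crlf2-deleted libraries and the CGRP row 412, 309 and 733. In controls the calcitonin row held 29, 14 and 105 reads and the CGRP row 16, 9 and 56. The calcitonin row thus exceeded the CGRP row by 41.6, 39.4 and 42.7% of its reads in Crlf2-deleted libraries, against 44.8, 35.7 and 46.7% in controls, and the groups overlapped. These excess reads can come only from the calcitonin exon printed above and the untranslated sequence beside it. They are a lower bound on that exon's reads, since reads in the CGRP exons offset them, and how the remaining reads divide cannot be told from the rows.

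Ramp1 has a row with a long last exon (2091 bases) and a row with a short one (394 bases), which share 2 exons. In lung the long row's excess over the short row was 180, 139 and 211 normalised reads in Crlf2-deleted libraries, against 53.6, 69.8 and 88.8 in controls. The short row had 73.1, 44.8 and 78.7 normalised reads in Crlf2-deleted libraries, against 25.7, 22.6 and 35.2 in controls. Both the long last exon and the rest of the gene were thus higher in every Crlf2-deleted library than in any control.

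In spleen Tregs, TSLP shifted the subunits of the CGRP receptor in opposite directions, with the fall of Ramp1 seen in its long last exon. The short Ramp1 row overlapped between the groups. Of the 9 genes, 4 passed the filter on low reads, of which 1 rose (Calcrl), 1 fell (Ramp1) and 2 did not pass the test (Vipr1 and Penk). Among all 13214 genes tested, 22.7% were called higher and 23.1% lower, so a call is common in this comparison. The median log2 fold change of all genes was 0.01. Markers of other cells moved too: the 6 B cell markers summed to 78.9 and 79.4 normalised reads in TCR + TSLP, against 126 and 115 in TCR, with 0 of 6 higher and 4 lower (edgeR). The 6 markers of CD8 T and NK cells summed to 24.6 and 26.0, against 40.8 and 40.4, with 2 of 4 tested lower. The Treg and CD4 T cell markers summed to 2987 and 3091 in TCR + TSLP, against 2527 and 2579 in TCR. The part of other cells in the falls of Ramp1 and of the listed genes below was not tested.

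Calcrl had 26.6 and 26.4 normalised reads in TCR + TSLP, against 12.2 and 13.4 in TCR. The groups did not overlap, which 38.1% of all genes tested did not in that direction, with a log2 fold change of 1.05 (SE 0.11), or 2.07-fold (edgeR, adjusted p = 0.000312). The value was 0.51 with trends on transcript length and GC content removed (edgeR, adjusted p = 0.0113), and in the fit of all 4 groups the call was lost (edgeR, adjusted p = 0.0527).

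Ramp1 had 2.84 and 2.32 normalised reads in TCR + TSLP (106 and 131 reads), against 6.47 and 5.51 in TCR (167 and 138 reads). The groups did not overlap, as for 37.3% of all genes tested in the lower direction, and the log2 fold change was -1.22 (SE 0.21), or 0.428 of the level in TCR alone (edgeR, adjusted p = 0.00237). With all Ramp1 rows summed it was -0.80 (edgeR, adjusted p = 0.012). Per kb, Ramp1 stood at 0.198 and 0.164 of Calcrl in TCR + TSLP libraries and at 0.985 and 0.763 of Calcrl in TCR libraries. By the long Ramp1 row, TCR-stimulated Tregs thus held nearly as much Ramp1 as Calcrl transcript, and TSLP-treated ones several times less. The short Ramp1 row had an RPKM of 0.53 and 0.40 in TCR, against 0.90 and 1.11 for Calcrl. In TCR + TSLP it had 0.61 and 0.56, against 2.68 and 2.68 for Calcrl.

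The fall of Ramp1 was seen in the reads of its long last exon. The excess of the long row over the short row was 1.74 and 1.33 normalised reads in TCR + TSLP (65 and 75 reads), against 5.19 and 4.63 in TCR (134 and 116 reads). The short row had 1.10 and 0.992 normalised reads in TCR + TSLP (41 and 56 reads), against 1.28 and 0.878 in TCR (33 and 22 reads), and there the groups overlapped. As a share of the long row's reads, the excess was 61.3 and 57.3% in TCR + TSLP, against 80.2 and 84.1% in TCR. This difference between the rows was not tested.

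**Figure D5:**
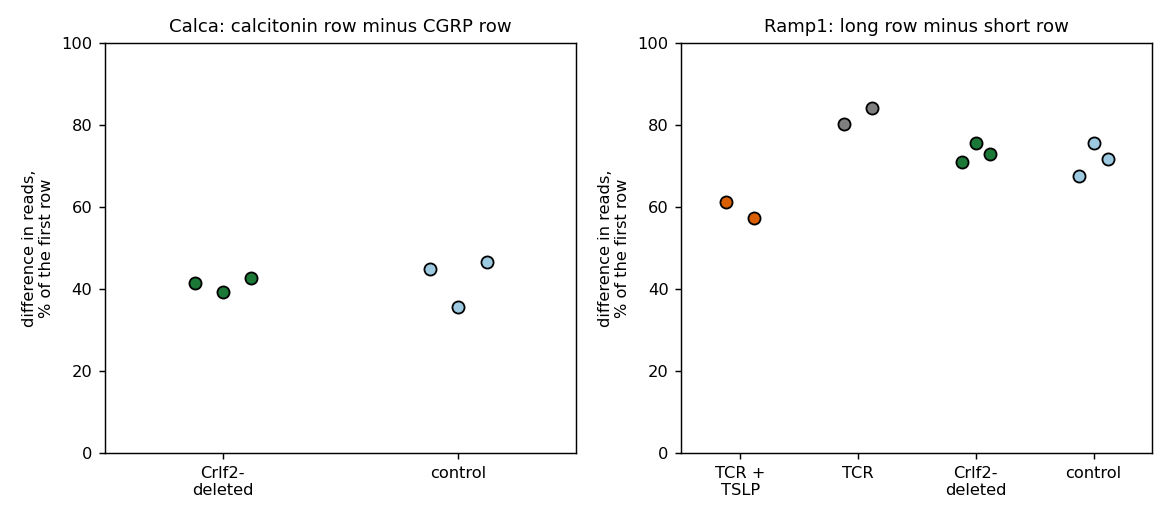
Difference in reads between 2 transcript rows of a gene as a percentage of the first row, for Calca (calcitonin row minus CGRP row, lung) and Ramp1 (long minus short row, all groups). Points are libraries. The Calca shares overlap between the lung groups, and the Ramp1 shares of TCR + TSLP reach 61.3%, below the 80.2% of the lower TCR library.

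Vipr1 had 8.21 and 7.81 normalised reads in TCR + TSLP, against 9.41 and 9.42 in TCR, again without overlap, a log2 fold change of -0.23 (SE 0.13; edgeR, adjusted p = 0.186). Penk had 17.8 and 15.96 normalised reads in TCR + TSLP, against 17.0 and 20.8 in TCR, and the groups overlapped (log2 fold change -0.17, SE 0.13; edgeR, adjusted p = 0.329). The sign of both values turned under some scalings, given in the closing part.

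The other 5 genes were barely read in spleen Tregs and were not tested there. Calca had 5 and 7 reads in TCR + TSLP and 0 and 5 in TCR, Vipr2 had 5 and 4 reads and 3 and 6, and Gfra4 had 4 and 1 reads and 6 and 4. Nmur1 had 2 and 1 reads in TCR + TSLP and 0 in both TCR libraries, where a count of 0 allows up to 0.116 and 0.120 normalised reads. Scg5 had 0 reads in both TCR + TSLP libraries, which allows up to 0.0803 and 0.0532 normalised reads, and 2 and 0 in TCR. Such levels are too low to show a difference between the cultures.

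Placed on 1 scale, the 9 genes took a different order in each group. In Crlf2-deleted lung Tregs, Ramp1 led with 89.2 ± 20.0 normalised reads per kb (SD, n = 3), before Calca with 63.0 ± 16.7 and Penk with 39.9 ± 6.05. Each of these 3 overlapped its neighbour in the order. Below them were Nmur1 with 15.1 ± 5.66, Gfra4 with 14.9 ± 7.87 and Scg5 with 9.05 ± 2.26, which overlapped with each other, then Vipr2 with 4.48 ± 1.59, Calcrl with 2.79 ± 0.217 and Vipr1 with 1.23 ± 0.424 normalised reads per kb. Vipr2 overlapped with Calcrl, and Vipr1 lay below both.

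In control lung Tregs, Penk with 38.6 ± 11.98 and Ramp1 with 35.9 ± 8.31 normalised reads per kb led and overlapped (SD, n = 3). Calca followed with 8.25 ± 3.58, and Calcrl (4.13 ± 1.55), Nmur1 (2.96 ± 1.82), Vipr1 (2.17 ± 2.37) and Gfra4 (1.25 ± 0.854) overlapped with their neighbours. Scg5 with 0.723 ± 0.365 and Vipr2 with 0.642 ± 0.308 were last and overlapped with each other and with Gfra4. Without control 3, Vipr1 averaged 0.841 and stood below Gfra4 with 1.42. Calca overlapped with Calcrl and not with Ramp1.

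In the spleen cultures Penk led in both groups, with 13.4 ± 0.965 normalised reads per kb in TCR + TSLP and 14.6 ± 2.13 in TCR (SD, n = 2 each). Calcrl was next, with 6.28 ± 0.0111 in TCR + TSLP and 2.94 ± 0.209 in TCR. In TCR + TSLP, Vipr1 (1.83 ± 0.0542) stood above Ramp1 by its long row (1.13 ± 0.154). In TCR, Ramp1 by that row (2.56 ± 0.279) stood above Vipr1 (2.09 ± 0.0102), and there was no overlap in either group. The other 5 genes averaged 0 to 0.165 normalised reads per kb. The labels give a culture for the spleen cells only, and the tissue, the culture and the library preparation cannot be told apart, so no test was made between them.

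Genes with the most alike pattern over the 10 libraries were found by the distance between log2 levels centred on each gene's mean, among 13149 genes. Calca lay nearest to Cib2 (distance 0.39) and Gpnmb (0.44), Scg5 to Itgb8 (0.43) and Lrrn4 (0.44), and Penk to Prr13 (0.10) and Ehd1 (0.15). Ramp1 lay nearest to Hist1h1c and Tsc22d3 (0.32 each), Calcrl to Etohi1 (0.15) and Copb1 (0.19), and Vipr1 to Kank3 (0.23) and Ccdc102a (0.25). Vipr2 lay nearest to Atp8a2 (0.24) and Csgalnact1 (0.25), Nmur1 to Hlf and Atp8a2 (0.34 each), and Gfra4 to Esm1 (0.42) and Vipr2 (0.44). Cib2 averaged 51.1 CPM in Crlf2-deleted and 7.01 CPM in control lung Tregs, and 0.259 CPM in TCR + TSLP and 0.476 CPM in TCR. Esm1 averaged 26.2 CPM in Crlf2-deleted and 2.03 CPM in control lung Tregs, and 0 and 0.0210 CPM in the cultures. Vipr2 was the only one of the 9 that came up as a nearest gene of another, Gfra4, and the distances describe these 10 libraries only.

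The other genes of these pathways were taken as lists and are given by their counts and medians, beside those of all genes. Of 42 further neuropeptide precursors, 15 had 0 reads in all 10 libraries, among them Vip, Adcyap1 and Nmu, the precursors of the peptides that Vipr1, Vipr2 and Nmur1 bind. Of 46 further receptors, 18 had 0 reads throughout. The opioid receptors, which bind enkephalins, had few reads. Oprm1 summed to 65 reads in Crlf2-deleted libraries, 40 in controls, 17 in TCR + TSLP and 11 in TCR, and Oprd1 to 3, 2, 2 and 2 reads. In lung, Oprm1 had 1.57 ± 0.0998 normalised reads in Crlf2-deleted libraries and 2.19 ± 1.22 in controls. It was not called there (edgeR, adjusted p = 0.79).

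In TCR + TSLP against TCR, 11 of the further precursors were tested, with 0 higher and 4 lower (edgeR; 0 higher and 5 lower at an unadjusted p under 0.05, and 0 and 4 by DESeq2). Their median log2 fold change was -0.94, against 0.01 for all genes, of which 22.7% were called higher and 23.1% lower. Nmb, the precursor of neuromedin B, fell to 2.03 ± 0.311 normalised reads in TCR + TSLP, against 4.58 ± 0.0995 in TCR (SD, n = 2 each). Npff, which encodes neuropeptide FF, and Insl6, a relative of insulin and relaxin, fell by 1.48 and 0.94 on the log2 scale. With the length trend removed, Nmb was at -0.37 (edgeR, adjusted p = 0.224) and Insl6 at -0.07 (edgeR, adjusted p = 0.793), and calls on the list numbered 2, and 1 with length and GC trends removed. In lung, 6 were tested and 0 called (edgeR; 0 at an unadjusted p under 0.05 and 0 by DESeq2), with a median of 0.38 against -0.04 for all genes. Without control 3 the median was -0.06, and 0 were called.

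Of the further receptors, 8 were tested in TCR + TSLP against TCR, with 0 higher and 4 lower (edgeR; the same counts at an unadjusted p under 0.05 and by DESeq2) and a median log2 fold change of -1.05. Among all genes tested there, 22.7% were called higher and 23.1% lower by edgeR, with a median of 0.01. In lung 1.79% of all genes were called, with a median of -0.04. Ramp3, another Calcrl partner, fell with Ramp1, to 1.21 ± 0.288 normalised reads in TCR + TSLP, against 3.08 ± 0.953 in TCR (SD, n = 2 each; edgeR, adjusted p = 0.0102). Its call was lost with length and GC trends removed (-0.84; edgeR, adjusted p = 0.0802), and 0 of the listed receptors were called with a mean RPKM of at least 1 in a group. Npy1r, a receptor of neuropeptide Y, and Ednrb, a receptor of endothelins, fell by 1.96 and 2.40 on the log2 scale. In lung, 9 were tested and 0 called (edgeR; 1 higher and 0 lower at an unadjusted p under 0.05, 0 by DESeq2), with a median of 0.23, and 0 were called without control 3. Among the GDNF family, Gfra2, the neurturin receptor, fell to 0.262 ± 0.0302 normalised reads in TCR + TSLP, against 2.68 ± 1.20 in TCR. It was 1 of 3 tested there, with 0 higher (edgeR; 0 higher and 2 lower at an unadjusted p under 0.05, and 0 and 1 by DESeq2) and a median of -1.27. In lung 1 gene of the family was tested and 0 called (edgeR; 0 at an unadjusted p under 0.05 and 0 by DESeq2), at -2.46, or 0.03 without control 3.

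Of the enzymes that cut or trim peptides, 5 of 14 rose and 1 fell in TCR + TSLP against TCR, where 45.8% of all genes were called, with a median log2 fold change of 0.15. Cpd, a carboxypeptidase of the secretory route, rose to 68.7 ± 2.95 normalised reads in TCR + TSLP, against 31.0 ± 0.412 in TCR (SD, n = 2 each; edgeR, adjusted p = 0.000159). Furin, the ubiquitous proprotein convertase, and Ide, the insulin-degrading enzyme, rose by 0.46 and 0.38. With the length trend removed both calls were lost, Furin at 0.25 (edgeR, adjusted p = 0.0794) and Ide at 0.16 (edgeR, adjusted p = 0.186).

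In lung, 0 of 17 such enzymes rose and 2 fell (edgeR; 2 higher and 4 lower at an unadjusted p under 0.05, and 1 and 3 by DESeq2), with a median of -0.24. Among all genes tested in lung, 0.771% were called higher and 1.01% lower by edgeR, with a median of -0.04. Without control 3 the median of the enzymes was 0.02, against -0.01 for all genes, and 6 enzymes were called. The share of all genes called in that fit is not given here, so these 6 are not set against one. Furin fell to 190 ± 36.4 normalised reads in Crlf2-deleted libraries, against 346 ± 20.1 in controls (SD, n = 3 each; edgeR, adjusted p = 0.0411). Dpp4, which cleaves short peptides at the cell surface, fell to 15.3 ± 4.08, against 48.9 ± 13.6 (edgeR, adjusted p = 0.0327). Pcsk1, a prohormone convertase, had 5.39 ± 2.04 normalised reads in Crlf2-deleted libraries and 1.21 ± 1.98 in controls and was not called (edgeR, adjusted p = 0.437). Without control 3, Furin was at -0.81 (edgeR, adjusted p = 0.0336) and Dpp4 at -1.84 (edgeR, adjusted p = 0.0125), and both calls were lost without any other single library (edgeR, adjusted p = 0.0541 to 0.19).

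Downstream of the Gs-coupled receptors, 8 of 33 genes of cAMP and CREB signalling rose and 2 fell in TCR + TSLP against TCR. Their median log2 fold change was 0.13. Among all genes tested in this comparison, 22.7% were called higher and 23.1% lower, or 45.8% in either direction. Atf1, a relative of CREB, and Pde3b, which degrades cAMP, rose by 0.82 and 0.77, and Arrb2, an arrestin, fell by 0.51. The Arrb2 call was lost with summed transcripts (-0.24; edgeR, adjusted p = 0.0595). Of genes that cAMP induces in many cell types, 6 of 16 rose and 1 fell, with a median of 0.23, and Fosl2, Dusp1 and Nfil3 rose by 0.73, 0.62 and 0.46. Of the other Gs-coupled and neurotransmitter receptors, 1 of 11 rose (Ptgir, the prostacyclin receptor, by 0.48) and 1 fell (Adora2a, an adenosine receptor, by 0.45), with a median of 0.14. Adora2a was at -0.22 under library totals alone and not called (edgeR, adjusted p = 0.221). Under library totals alone, 20 of the 33 genes of cAMP and CREB signalling were called, beside 7059 of all 13214 genes.

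In lung, 1 of 31 genes of cAMP and CREB signalling rose and 0 fell (edgeR; 5 higher and 0 lower at an unadjusted p under 0.05, and 3 and 0 by DESeq2), with a median of 0.18. The 1 was Pde4a, a phosphodiesterase that degrades cAMP, at 34.5 ± 8.42 normalised reads in Crlf2-deleted libraries, against 13.1 ± 1.62 in controls (SD, n = 3 each; edgeR, adjusted p = 0.0446). Without control 3 it was at 1.51 on the log2 scale (edgeR, adjusted p = 0.0352). It was the only one called then too. Of the cAMP-induced genes, 0 of 15 were called (edgeR; 6 higher and 2 lower at an unadjusted p under 0.05, 3 and 0 by DESeq2), with a median of 0.27. Without control 3, 5 were called and the median was 0.53, against -0.01 for all genes in that fit. Of the other Gs-coupled and neurotransmitter receptors, 0 of 10 were called (edgeR; 2 higher and 1 lower at an unadjusted p under 0.05, 2 and 0 by DESeq2), with a median of 0.40. Without control 3, 1 was called. All genes called were 1.79% in this comparison with control 3 included. Their share without control 3 is not given here, so the counts without it are not set against one.

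The genes lie apart in the genome (GRCm38, GENCODE M21). Calca spans chr7:114633293-114636312 in its calcitonin form (4 exons, minus strand), Penk chr4:4133531-4138477 (2 exons, minus) and Scg5 chr2:113776362-113829121 (6 exons, minus). Ramp1 spans chr1:91180046-91225196 (3 exons, plus), and Nmur1 lies on the same chromosome at chr1:86386325-86388141 (2 exons, minus). Calcrl spans chr2:84330626-84425411 (16 exons, minus), Gfra4 chr2:131039632-131043088 (6 exons, minus), Vipr1 chr9:121642716-121672954 (13 exons, plus) and Vipr2 chr12:116077728-116146261 (13 exons, plus). Besides Penk and Gfra4, none of the rows shares exon bases with another annotated gene.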

How the data were processed

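The deposited files hold, per the file headers, reads and RPKM per RefSeq transcript. Counts are whole reads the authors assigned to each transcript, and the authors computed RPKM from them with the transcript length and a larger library total. Gene reads were 37.8 to 44.5% of that total in spleen and 14.9 to 23.6% in lung. Per the submitters' processing notes, the tools included edgeR, bedtools 2.25.0, TopHat2 2.2.1, Bowtie2 2.2.6 and SAMtools 0.1.8, with the mm10 build. The counting tool and strand rule are not stated there. Per the labels' protocols, TCR-stimulated Tregs were made into ribosomal-depleted stranded libraries; the lung kit is not stated separately.

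Counts (1 transcript per gene, that with the highest mean reads; 4343 genes had several) were tested within each comparison with edgeR 4.0.16 in R 4.3.3 (TMM, filterByExpr with a minimum count of 10, robust quasi-likelihood, two-sided, adjusted over all genes tested). The SE was the log2 fold change over the root of F. The test was checked on simulated counts. A count of 0 allows up to 3 reads, which covers counting error only. Named genes were the 9, Crlf2, Foxp3, up to 3 called genes of each list by p, and 2 nearest patterns per gene (root mean square distance of centred log2(CPM + 1)); Pcsk1, Ret, Pspn, the opioid receptors and single markers were picked with their values known. All lists and the 9 genes were chosen with earlier results of these data known. Alternatives were DESeq2 1.42.0, limma 3.58.1 on log2(RPKM + 1) and log2(RPKM + 0.1), other scalings and filters, summed transcripts, length and GC trends (loess span 0.3; 211 genes without GC), all 4 groups, a replicate block and leaving out each library. The result of 1 marker gene is not reported here.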

Additional observations from a re-analysis of the deposited data

How the results depend on the processing

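The smallest library and 2 to 3 libraries a group limit all values. In lung, the directions of Calca, Scg5, Ramp1, Vipr2, Nmur1 and Gfra4 were the same in all alternatives run. Of the 9 genes, 5 were called in lung, 3 with the replicate block, 3 with summed transcripts and 0 to 6 with 1 library left out. In the TSLP comparison 2 were called, and 1 each with a mean RPKM of at least 1 in a group (2 tested) and with all 4 groups in one fit. There 3 were called with the length trend removed (adding Vipr1, -0.45, edgeR, adjusted p = 0.0326) and 3 without TCR 1 (adding Penk, -0.31, edgeR, adjusted p = 0.00989). Over all genes, 6050 were called with TSLP, 3947 with length and GC trends removed, 1356 with all 4 groups in one fit and 3212 to 8624 with 1 library left out. In lung, 227 were called, 867 with DESeq2, 856 and 804 with limma on log2(RPKM + 1) and log2(RPKM + 0.1), 121 with the replicate block, 134 with summed transcripts, 873 with all 4 groups in one fit and 4 to 532 with 1 library left out. The cause was not tested. Genes called higher and lower split 98 and 129 in lung, 137 and 57 under library totals alone, 762 and 94 under limma with a pseudocount of 1, 719 and 85 with 0.1 and 32 and 89 with the replicate block. With TSLP they split 2999 and 3051, 5059 and 2000 under library totals alone, and 5679 and 1249 or 5606 and 1366 under limma. Library totals alone moved the median of all genes to 0.24 (TSLP) and 0.14 (lung), and limma to 0.20 and 0.21 with a pseudocount of 1.

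Penk with TSLP (-0.17) turned to 0.063 under library totals alone, 0.18 and 0.21 under limma, 0.10 with the length trend removed and 0.15 with length and GC trends removed. Vipr1 with TSLP (-0.23) turned to 0.058 and 0.12 under limma. In lung, Vipr1 (-0.91) turned to 0.029 under limma with a pseudocount of 0.1 and 0.35 without control 3 (range -1.35 to 0.35 with 1 library left out). Penk in lung (0.03) turned to -0.18 without control 3 and -0.09 without Crlf2-deleted 3 (range -0.18 to 0.32). Ide with TSLP (0.38) turned to -0.048 with length and GC trends removed.

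The labels do not say whether the replicate numbers pair the libraries. Deviations from the group means correlated between same-numbered libraries at -0.12 with TSLP and at 0.08, -0.15 and -0.04 in lung. With 2 libraries a group these deviations mirror each other, so the TSLP value is a single number. Whether libraries are paired cannot be told from such weak correlations. With the replicate block, edgeR called Calca (adjusted p = 0.0369), Ramp1 (0.034) and Gfra4 (0.0425) and not Scg5 (0.0639) or Vipr2 (0.0861), and 5818 genes with TSLP. With limma on log2(RPKM + 1), Adora2a and Arrb2 were not called with TSLP (adjusted p = 0.75 and 0.456). With all 4 groups in one fit, calls with TSLP were 1 of the listed precursors, 1 receptor, 0 of the GDNF family, 1 enzyme, 1 of cAMP and CREB signalling and 0 of cAMP-induced genes. A crossed pairing, chosen after seeing the data, gave 7106.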
